A study of Mus musculus with 8 samples.

Results

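The TRIM genes (tripartite motif) encode a family of proteins built from a RING finger, 1 or more B-boxes and a coiled coil, most of which attach ubiquitin to other proteins. Members were all genes whose symbol in the platform annotation is Trim followed by a digit, with the single-symbol probe set of highest mean over the 8 arrays standing for the gene and the remaining probe sets kept as a check. This gave 58 of the 18193 genes measured, covered by 111 of 45037 probe sets. RefSeq lists 68 such protein-coding genes, and those without a single-symbol probe set were not analysed here. The family was singled out because its neighbours Trim34a and Trim12c moved in opposite directions in these arrays, so the differences of that pair are given as a description. Where a count of members past limma's threshold includes them, it is a description too. For the main fit over genes the count without them is given.

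Trigeminal ganglia, where the sensory neurons that serve the face have their cell bodies, were taken from 4 mouse samples carrying a daDREAM transgene, all tagged tg16 in their titles, and from 4 control samples. DREAM is a calcium-binding repressor of transcription, and daDREAM is a dominant active mutant of it. Both groups were labelled as adult males on the mixed background C57B/6XCBA, and RNA was read on Affymetrix whole-genome mouse arrays. The sources used here do not give the promoter of the transgene, the exact age, or whether an array holds 1 animal or a pool. The p-values therefore cover the spread of these samples, which may be technical. All values are RMA log2 expression values of a probe set, differences are daDREAM minus control on the log2 scale, and n = 4 arrays in each group. A gene "passed" when limma's adjusted p (Benjamini-Hochberg over all 18193 genes) was under 0.05.

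Several TRIM proteins act in innate immunity. Human TRIM5 binds the capsids of retroviruses, TRIM25 adds ubiquitin chains to the RNA sensor RIG-I, and TRIM21 is a receptor for antibody inside the cell. Interferon raises the transcription of many of these genes through the interferon-stimulated response element (ISRE) in their promoters. Others work in neurons and muscle, as microtubule-bound or neurofilament-directed ligases, and the TIF1 subgroup regulates chromatin.

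Some arrays stood apart in ways that the groups do not describe. Xist, a transcript of female cells, read 11.51 on daDREAM replicate 4 and 11.72 and 10.20 on control replicates 4 and 3, against 6.10 to 6.49 on the other arrays, although the labels name male mice. The pituitary hormone gene Gh was highest on daDREAM replicates 4 (13.43) and 3 (12.50) and control replicate 3 (11.15). The muscle actin Acta1 was highest on control replicates 3 (9.40) and 1 (9.20), and 18S control probe sets on control replicates 4 (10.65) and 1 (9.41). Markers of sensory neurons were bright on every array, with a mean over 9 genes of 11.67 to 11.81 in daDREAM and 11.57 to 11.84 in control ganglia. In whole ganglia, fewer cells of a type and less RNA per cell cannot be told apart.

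Apart from Trim34a and Trim12c, 3 of 56 TRIM genes passed. Trim30a and Trim37 were higher in daDREAM ganglia and Trim21 was lower. With the pair, which also lay past the threshold, the count was 5 of 58, 3 of them higher and 2 lower. The background over all genes was 2.00% passed, 0.984% higher and 1.02% lower, and nothing is read from the family's share. An unadjusted limma p under 0.05 was found for 16 of the 58 members, for 14 of the 56 without the pair, and for 18.2% of all genes. The median difference over the family was 0.009, beside 0 over all genes, and 47 of the 58 differences were under 0.25 in size, as were 87.1% of all genes. A size of at least 0.5 was reached by 4 members, Trim34a, Trim12c, Trim30a and Trim37, and by 2.18% of all genes. Arrays of the groups did not overlap in 6 members that were higher and 6 that were lower in daDREAM ganglia. Without the pair these were 5 and 5 of 56, where 5.0% and 5.73% of all genes did so. A mean of at least 6 over the arrays was reached by 47 members, and for 11 members both group means were under 6, called near background here. The median spread within groups was 0.134 (SD) for members and 0.128 for all genes, so the TRIM genes were measured about as tightly as others.

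**Figure D1:**
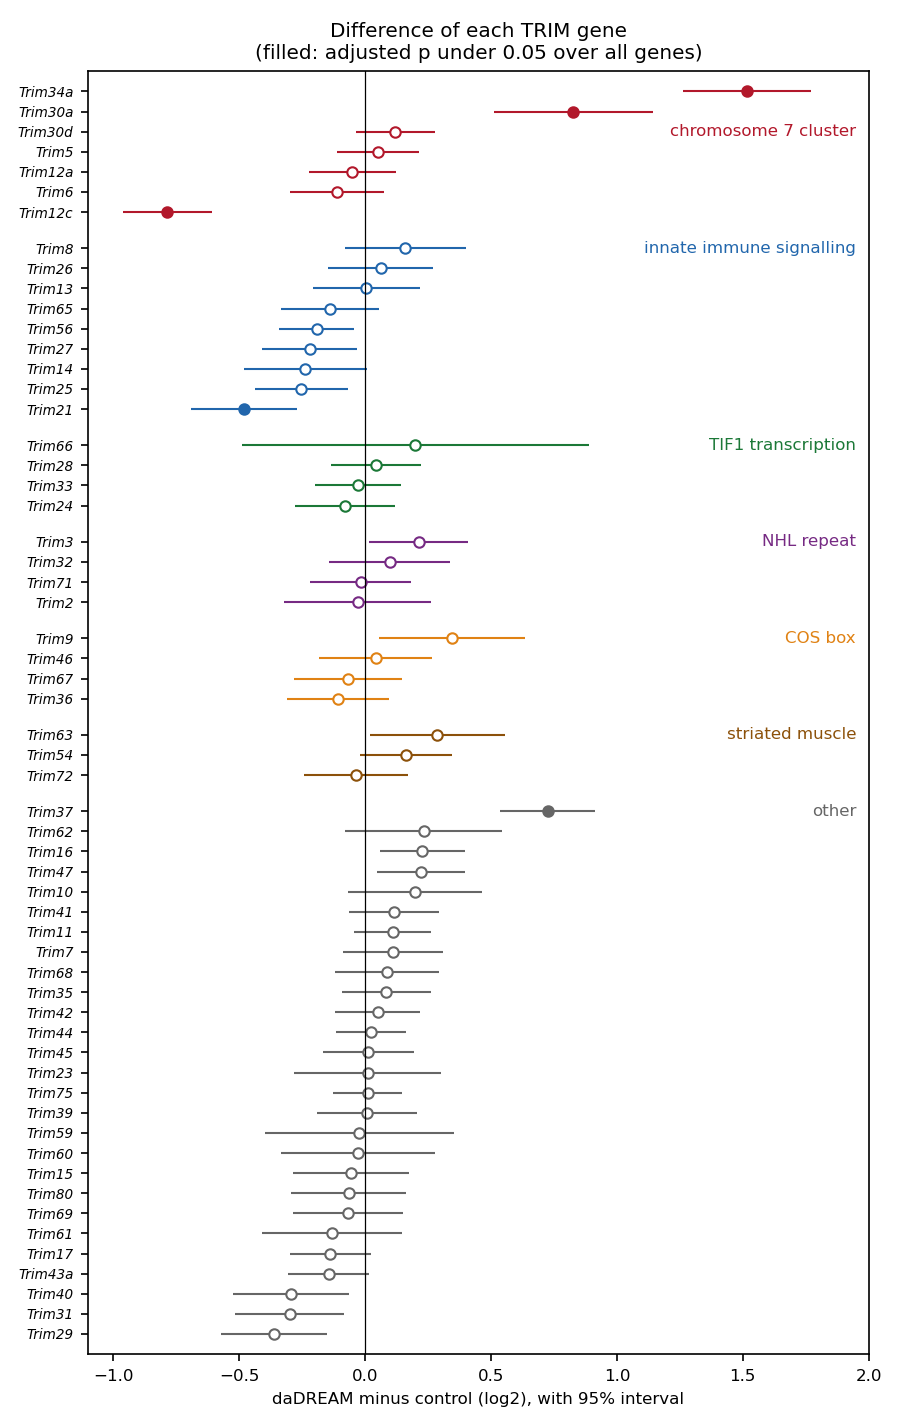
Difference of each of the 58 TRIM genes (x axis, daDREAM minus control, log2) with its 95% interval from limma, grouped by class; filled points passed over all genes. Trim34a at 1.52 and Trim12c at -0.785 are the ends of the range, and most members lie close to 0.

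The chromosome 7 cluster holds Trim34a and Trim12c. In RefSeq order on GRCm38.p6 it runs Trim6, Trim34a, Trim5, Trim12a, Trim34b, Trim12c, Trim30b, Trim30c, Trim30a and Trim30d. These genes arose by local duplication and are relatives of human TRIM5, TRIM6, TRIM22 and TRIM34. Promoter stretches are shown for the members of the cluster whose probe sets differed between the groups, and for Trim21 and Trim37, the members that passed outside it. Each runs from 60 bases before the annotated start to 30 bases after it, 5′ to 3′ along the gene, from RefSeq (GRCm38.p6). For Trim30a the second of 2 annotated starts is shown. Capitals mark matches to the ISRE letters, GAAA, any 2 bases and GAAA again, or on the other strand TTTC, any 2 bases and TTTC.
Trim34a, chr7:104244397-104244486, plus strand: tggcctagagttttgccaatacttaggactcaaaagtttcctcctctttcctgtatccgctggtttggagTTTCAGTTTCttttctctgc
Trim12a, chr7:104315466-104315555, minus strand: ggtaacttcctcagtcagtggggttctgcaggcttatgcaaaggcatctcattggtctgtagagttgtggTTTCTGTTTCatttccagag
Trim12c, chr7:104353320-104353409, minus strand: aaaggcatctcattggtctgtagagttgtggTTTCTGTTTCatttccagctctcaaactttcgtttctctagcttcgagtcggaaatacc
Trim30a, chr7:104465164-104465253, minus strand: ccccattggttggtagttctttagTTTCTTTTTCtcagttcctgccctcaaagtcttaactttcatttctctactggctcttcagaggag
Trim30d, chr7:104507820-104507909, minus strand: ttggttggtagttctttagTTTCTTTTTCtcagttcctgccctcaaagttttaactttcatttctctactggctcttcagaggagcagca
Trim21, chr7:102565453-102565542, minus strand: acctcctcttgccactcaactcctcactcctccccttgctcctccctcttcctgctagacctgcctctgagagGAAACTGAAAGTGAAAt
Trim37, chr11:87127015-87127104, plus strand: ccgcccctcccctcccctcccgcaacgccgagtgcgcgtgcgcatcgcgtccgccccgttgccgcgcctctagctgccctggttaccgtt

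In the full windows of 300 bases (250 before the start and 50 from it), 9 of the 47 members with a window held the ISRE letters on either strand, 19.1%, where 3.99% of all 27025 genes with a window did. Of these, 6 were the cluster's Trim34a, Trim5, Trim12a, Trim12c, Trim30a and Trim30d, and the other 3 were Trim21, Trim2 and Trim26. Outside the cluster the share was thus 3 of 40 (7.5%). Trim21 had 2 overlapping matches. Apart from Trim34a and Trim12c, the differences of the other 7 ran from -0.48 to 0.83, and 1 passed as higher (Trim30a) and 1 as lower (Trim21). Trim37 held none of these letters in its window. The 4 letters GTCA, the core of the element that DREAM binds, occurred on either strand in 44 of the 47 members' windows (93.6%) and in 87.0% of all genes' windows, so they hardly separate genes. Some windows of the cluster were close to identical. Trim5 and Trim12a matched at all of 241 aligned bases (100%), Trim12a and Trim12c at 247 of 260 (95%) and Trim30a and Trim30d at 276 of 295 (93.6%). Of the 36 pairs of cluster genes aligned over at least 100 bases, 4 were above 90%, and the other 32 ran from 70.5% to 88.0% with a median of 73.7%. A match of letters is a description of the sequence, not a bound site.

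Trim34a, an interferon-inducible gene in mouse and human, was higher in daDREAM ganglia. It read 7.42, 7.66, 7.46 and 7.80 in daDREAM ganglia, against 6.18, 5.88, 5.91 and 6.30 in control ganglia. All 4 daDREAM arrays lay above all control arrays, with more than 1 log2 unit between the closest ones. The difference was 1.52 (SE 0.12), a 2.86-fold higher signal. Trim12c, a mouse relative of human TRIM5, was lower in daDREAM ganglia. It read 6.32, 6.26, 6.23 and 6.38 in daDREAM ganglia, against 7.18, 7.18, 7.06 and 6.91 in control ganglia. The groups again stood clear of each other, in the opposite direction. The difference was -0.785 (SE 0.08), a 1.72-fold lower signal.

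Trim30a, an interferon-induced gene known in mouse for restraining signalling from Toll-like receptors, also rose. It read 7.16, 7.09, 7.09 and 7.59 in daDREAM ganglia, against 6.14, 6.25, 6.49 and 6.74 in control ganglia. Each daDREAM array was above each control array, and control values were spread more widely than for Trim12c. The difference was 0.83 (SE 0.14, limma adjusted p = 0.0115), or 1.77-fold. It did not pass without the 3 arrays with the most Gh (0.75, adjusted p = 0.165) or without the 2 arrays with the most Acta1 (0.74, adjusted p = 0.121).

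**Figure D2:**
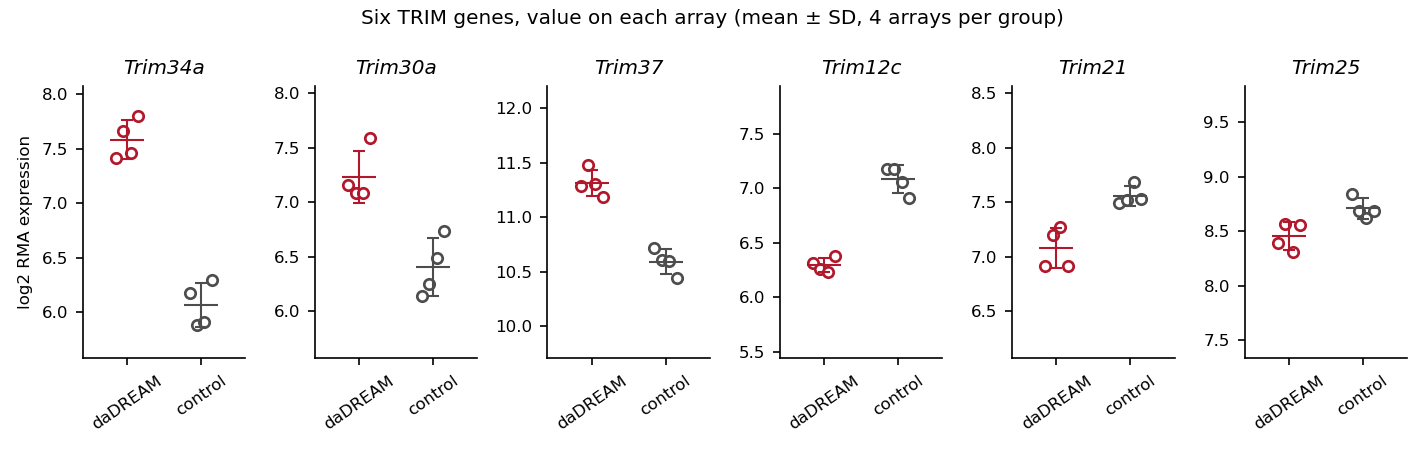
Log2 RMA expression (y axis, each panel spanning the same number of log2 units) of 6 TRIM genes on each array, with mean ± SD of 4 arrays; daDREAM arrays are red and control arrays grey. Groups are separate in all 6 panels, with daDREAM arrays higher for Trim34a, Trim30a and Trim37 and lower for Trim12c, Trim21 and Trim25.

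The other 4 measured cluster genes did not pass, and all lay near background. Trim6 read 5.73 ± 0.11 in daDREAM and 5.84 ± 0.12 in control ganglia. Trim5 read 4.19 ± 0.07 in daDREAM and 4.14 ± 0.09 in control ganglia. Trim12a read 5.42 ± 0.13 in daDREAM and 5.47 ± 0.04 in control ganglia, and Trim30d 5.67 ± 0.06 in daDREAM and 5.55 ± 0.09 in control ganglia, without overlap of arrays. Their differences lay between -0.11 and 0.12, so no change was detectable at these probe sets, and a change in genes near background could be missed.

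Different probe sets of a cluster gene did not read alike. Of 17 probe sets annotated to the cluster, 4 were higher and 2 lower with limma's adjusted p over all 45037 probe sets under 0.05, where 2.74% of all probe sets passed. The probe sets that represent Trim34a and Trim12c are among them, so this count is a description. Of the 10 cluster probe sets that do not represent a gene, 2 were higher and 1, the second of Trim34a, was lower. The second Trim34a probe set was lower, at 4.55, 4.42, 4.60 and 4.64 in daDREAM and 4.78, 4.97, 4.87 and 5.01 in control ganglia, all near background. Its difference was -0.355 (SE 0.08), against 1.52 at the brighter one. Of the probe sets shared by Trim34b and Trim34a, the brighter differed by 0.06 (limma adjusted p = 0.852 over probe sets) and the dimmer by 0.17 (adjusted p = 0.291). Opposite signs within 1 gene therefore stand beside opposite signs between neighbours.

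For Trim12a, the dimmer probe set read 5.75, 5.82, 5.69 and 5.57 in daDREAM ganglia, against 4.81, 4.70, 4.59 and 4.78 in control ganglia. The arrays were separated by more than 0.7, yet all values were below 6. The difference was 0.99 (SE 0.08, limma adjusted p = 2.92e-05 over probe sets), while the representing probe set read -0.05. The second Trim12c probe set differed by -0.12 (SE 0.09, adjusted p = 0.527 over probe sets), so the fall of Trim12c rests on 1 probe set. The second Trim30a probe set differed by -0.22 (SE 0.10, adjusted p = 0.291 over probe sets), with the sign turned. At the dimmer Trim30d probe set the signal rose, with a difference of 0.555 (adjusted p = 0.0347 over probe sets). The dimmer Trim6 one read 0.34 (adjusted p = 0.0819 over probe sets).

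**Figure D3:**
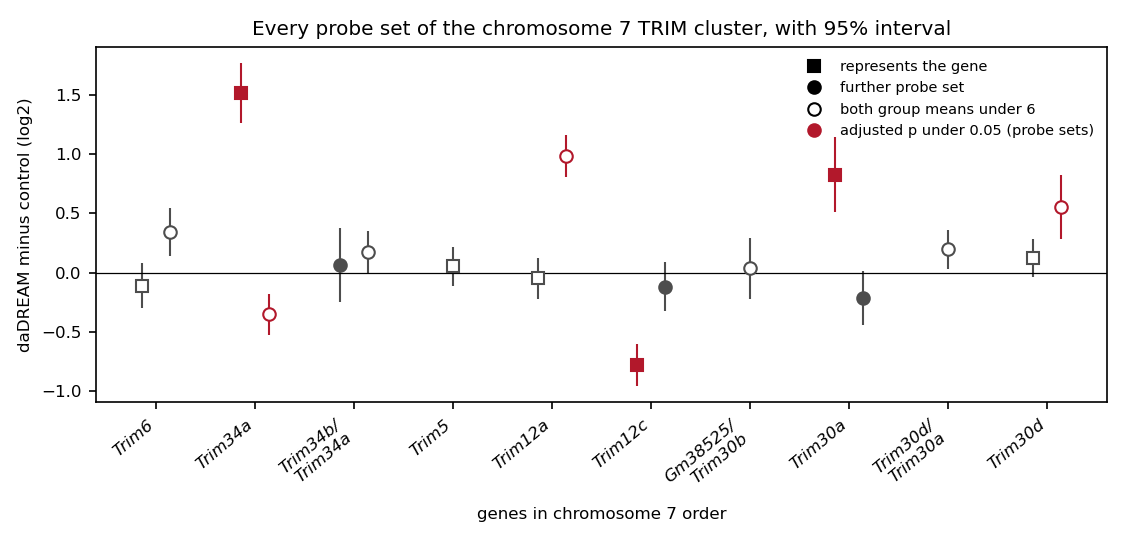
Difference (y axis, daDREAM minus control, log2, with 95% interval) of all 17 probe sets of the chromosome 7 TRIM cluster, genes in chromosome order and those shared by several genes marked with a slash. Squares represent a gene, circles are further probe sets, open symbols have both group means under 6, and red ones passed over probe sets; Trim6, Trim34a, Trim12a and Trim30a each hold probe sets on both sides of 0.

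Genes of the cluster are related by duplication, and neither probe nor transcript sequences were compared here. Whether a probe set reads 1 gene of the cluster or several was not tested. Probe sets annotated to several genes, 5 over the whole family, were not called (0 of 5).

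Among the 40 measured genes nearest to the cluster, 20 on each side, 2 passed (5%, against 2.00% of all genes): Pgap2, which remodels the lipid anchor of membrane proteins, and Trim21. Pgap2 read 8.42, 8.59, 8.45 and 8.47 in daDREAM ganglia, against 7.84, 7.99, 8.01 and 8.05 in control ganglia, a difference of 0.51 (limma adjusted p = 0.00381). The median difference of the 40 genes was 0.01, and 34 differed by less than 0.25, a share near that of all genes. Without the 3 arrays with the most Gh, or the 2 with the most Acta1, 0 of them passed limma. On all arrays 9 of the 40 had an unadjusted p under 0.05, beside 18.2% of all genes. Among the 40 measured genes around Trim37, chosen after its value was seen, 1 passed, Brip1os, which was lower by -0.46 (adjusted p = 0.0191).

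Trim37 had the broadest support over probe sets. The human gene is mutated in mulibrey nanism, and the ligase limits the assembly of centrosomes and takes part in the import of peroxisomal proteins. Its brightest probe set read 11.29, 11.48, 11.31 and 11.19 in daDREAM ganglia, against 10.72, 10.61, 10.60 and 10.44 in control ganglia. The lowest daDREAM array exceeded the highest control array by almost 0.5. The difference was 0.725 (SE 0.09, limma adjusted p = 8.54e-04), or 1.65-fold.

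The other Trim37 probe sets were compared over all probe sets with limma. The second brightest was higher by 0.46 (adjusted p = 0.0263) and the fourth by 0.72 (adjusted p = 0.00222). The third differed by 0.465 with overlapping groups (adjusted p = 0.0566), and the dimmest by 0.02 (adjusted p = 0.933). Thus 3 of 5 probe sets rose and 4 of 5 lay at 0.46 or above, all well above background. Trim37 passed in each of the 21 other settings tried, with differences from 0.46 to 0.795. Adjusted p ran from 3.64e-04 to 0.0485, from limma in every setting except the unequal-variance test.

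**Figure D4:**
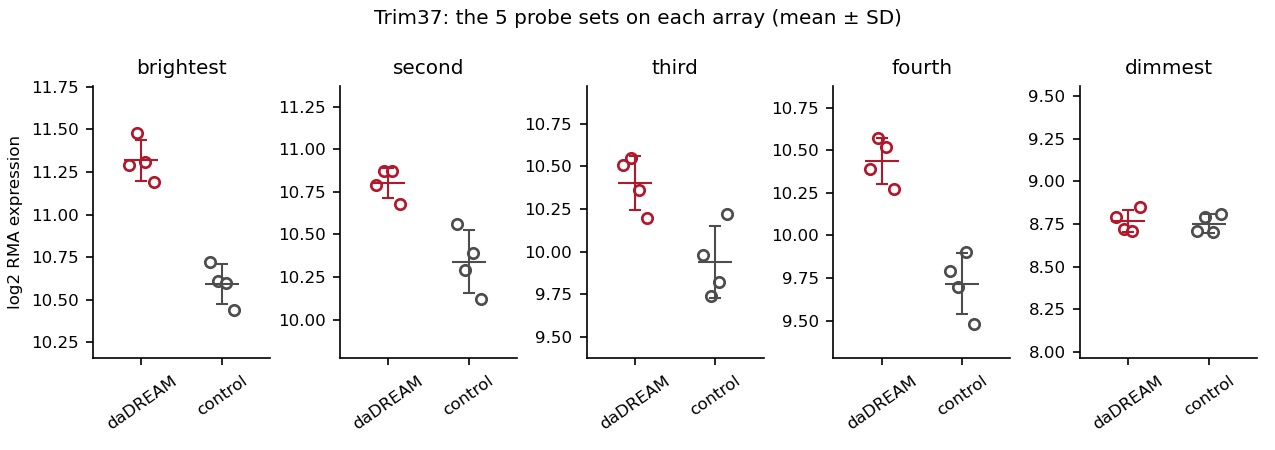
Log2 RMA expression (y axis) of the 5 Trim37 probe sets on each array, ordered by brightness, with mean ± SD of 4 daDREAM (red) and 4 control (grey) arrays. The brightest, the second and the fourth are separate between groups, while the dimmest reads alike, at 8.77 in daDREAM and 8.75 in control ganglia.

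Outside the cluster, whose interferon-inducible genes are described above, 9 TRIM genes are linked to innate immune signalling. Of these 1 fell, 0 rose and 8 did not pass, where 1.02% of all genes passed as lower and 0.984% as higher. Trim21 read 6.92, 7.20, 7.27 and 6.92 in daDREAM ganglia, against 7.49, 7.52, 7.69 and 7.53 in control ganglia. The groups did not overlap, though daDREAM arrays split into a higher and a lower pair. The difference was -0.48 (SE 0.10, limma adjusted p = 0.0262), a 1.39-fold lower signal, and the second probe set read -0.22 (adjusted p = 0.230 over probe sets). Trim21 did not pass without control replicate 1, 2 or 3 or without daDREAM replicate 1 or 4, where limma's adjusted p ran from 0.0529 to 0.0820. It did not pass without the arrays with the most Gh, Xist, Acta1 or 18S either, with adjusted p from 0.106 to 0.206. Its difference stayed between -0.375 and -0.53 in these fits, which hold fewer arrays.

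Trim25 read 8.39, 8.57, 8.31 and 8.56 in daDREAM ganglia, against 8.84, 8.69, 8.62 and 8.69 in control ganglia. All control arrays were above all daDREAM arrays, by a narrow margin. The difference of -0.25 (SE 0.08, limma adjusted p = 0.157) did not pass. Its second probe set fell by 0.37 on the log2 scale (adjusted p = 0.0335 over probe sets), and the dimmest read 0.05 (adjusted p = 0.760). Trim56, which promotes signalling by the DNA-sensing adaptor STING, read 7.49, 7.52, 7.51 and 7.39 in daDREAM ganglia, against 7.70, 7.70, 7.58 and 7.70 in control ganglia. These groups did not overlap, but the difference of -0.19 (limma adjusted p = 0.181) did not pass. The class as a whole had a median of -0.19, with 6 of 9 values below 0. Over all genes the median was 0, with 8994 of 18193 below 0.

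Some interferon-induced genes were lower in daDREAM ganglia. Over all genes, 1.02% passed as lower and 0.984% as higher. Of 45 measured genes for sensors, transcription factors, receptors and interferon-induced products, 9 fell and 0 rose, with a median of -0.18. All 9 belong to the 21 induced genes, namely Iigp1, Oasl2, Usp18, Ifit1, Gbp3, Gbp2, Ifit3, Irgm1 and Xaf1, and the median of those 21 was -0.38. None of 13 sensors and adaptors passed (0 of 13 by limma and by the unequal-variance test, with 5 at an unadjusted limma p under 0.05). None of 11 transcription factors and receptors passed either (0 of 11 by limma and by the unequal-variance test, with 2 at an unadjusted limma p under 0.05). Ifih1 and Ddx58, the sensors MDA5 and RIG-I, read -0.33 and -0.37 without passing (limma adjusted p = 0.0640 and 0.0692). Both passed as lower when probe sets were averaged, and when the replicate number was a block. Ddx58 was also past the threshold, as lower, at its second brightest probe set. Ifih1 was so after renewed quantile normalization and without control replicate 4. Of the receptors and factors, Irf7 read -0.315 (adjusted p = 0.155) and Irf1 -0.18 (adjusted p = 0.204). The list was chosen with these arrays' interferon results known and is no independent evidence of its direction.

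Iigp1, an interferon-induced GTPase, read 7.14, 7.06, 6.79 and 6.86 in daDREAM ganglia, against 8.28, 8.59, 8.5 and 8.02 in control ganglia (difference -1.39, limma adjusted p = 1.02e-04). Usp18, which removes the ubiquitin-like protein ISG15, read 6.53, 6.59, 6.54 and 6.27 in daDREAM ganglia, against 7.47, 7.69, 8.05 and 7.38 in control ganglia (difference -1.17, limma adjusted p = 7.31e-04). Oasl2, an antiviral gene, read 8.52, 8.54, 8.34 and 8.39 in daDREAM ganglia, against 9.22, 9.13, 9.17 and 9.24 in control ganglia (difference -0.74, adjusted p = 1.97e-04). All 3 were lower on every daDREAM array than on any control array, as were Trim21 and Trim12c, whereas Trim34a and Trim30a were higher. For these TRIM genes this holds at the probe set that represents the gene. Their second probe sets read -0.355 (Trim34a), -0.22 (Trim30a), -0.22 (Trim21) and -0.12 (Trim12c). Of the 14 induced genes with a promoter window, 10 held the ISRE letters (71.4%). The difference between TRIM genes and the induced list was not tested. Without the 3 arrays with the most Gh 3 of the 45 genes passed, Iigp1, Oasl2 and Usp18, and without the 2 arrays with the most Acta1 5 passed. With the unequal-variance test 1 passed, Oasl2. At the second brightest probe set 3 of 23 passed as lower, Ddx58, Eif2ak2 and Gbp2. Iigp1 and Xaf1, which also have a second probe set, did not pass there. The other induced genes that passed on all arrays have no second single-symbol probe set. Without control replicate 2, Myd88, an adaptor of Toll-like receptors, passed as higher.

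**Figure D5:**
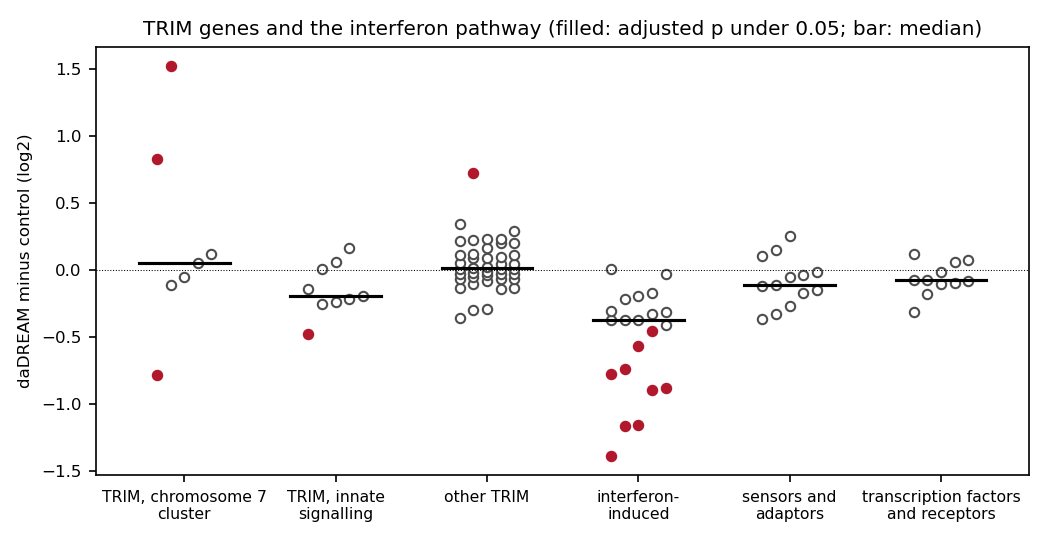
Difference of each gene (y axis, daDREAM minus control, log2) for TRIM classes and for the 3 parts of the interferon list; filled red points passed over all genes and the bar is the median. The induced genes lie at or below 0.01 with a median of -0.38.

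Of 7 lymphocyte markers fixed 6 were measured and 1, the immunoglobulin heavy chain Ighm, fell. Their summed signal was 9.44 to 9.68 in daDREAM and 10.24 to 10.33 in control ganglia (log2), so the groups did not overlap. That sum adds unlogged values, so it is weighted to Ighm, the brightest of the 6 (8.38 in daDREAM and 9.62 in control ganglia). Ighm also had the largest difference of the 6 (-1.24, limma adjusted p = 1.97e-05). The B cell markers Cd79a, Cd79b and Ms4a1 read 0.04, -0.005 and -0.06 without passing. Of the T cell markers, Cd3e read -0.25 without overlap of arrays (limma adjusted p = 0.158). Cd3g read -0.215 (limma adjusted p = 0.314). Of 5 granulocyte markers 3 rose, S100a8, S100a9 and Lcn2, where 0.984% of all genes passed as higher and 1.02% as lower. The summed signal of these 5 was 9.64 to 9.92 in daDREAM and 8.87 to 9.34 in control ganglia. Of 6 macrophage markers 0 passed limma (0 also at an unadjusted p under 0.05), with a summed signal of 11.32 to 11.68 in daDREAM and 11.32 to 11.52 in control ganglia. The part of such cells in the TRIM and interferon differences was not tested.

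TRIM genes of neurons did not pass. The COS box class, whose proteins bind microtubules, had 4 members and 0 that passed limma (1 at an unadjusted p under 0.05). Trim9, which controls axon branching together with the netrin receptor DCC, read 8.84, 9.20, 9.12 and 8.89 in daDREAM ganglia, against 8.95, 8.65, 8.76 and 8.31 in control ganglia. The groups overlapped through control replicate 1, and the difference was 0.345 (SE 0.13, limma adjusted p = 0.209). Its other probe sets read 0.235, 0.15 and 0.18, all without passing. Trim36 read 11.77 ± 0.09 in daDREAM and 11.88 ± 0.17 in control ganglia (difference -0.11, adjusted p = 0.555). Trim46, which bundles microtubules at the start of the axon, and Trim67, a close relative of Trim9, differed by 0.04 and -0.07.

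Of 9 central nervous system markers 1 passed, where 2.00% of all genes did. It was Aqp4 of astrocytes, which was higher in daDREAM ganglia. All 9 had a difference above 0, from 0.12 to 1.58. The largest was that of Gfap, also of astrocytes, whose groups did not overlap but which did not pass (limma adjusted p = 0.0660). The summed signal of the 9 was 13.50 to 13.92 in daDREAM and 12.54 to 13.48 in control ganglia, without overlap. Trim9, like the summed signal of these markers, was lowest on control replicate 4. Not every marker was, and Aqp4 read 10.41 on control replicate 2 and 10.43 on control replicate 4. The part of such tissue in Trim9's values was not tested.

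The NHL repeat class, which includes Trim2, a ligase for the light neurofilament, and Trim3, a synaptic ligase of neurons, also held 4 members and 0 that passed limma (1 at an unadjusted p under 0.05). Trim3 read 10.21, 10.17, 10.25 and 10.04 in daDREAM ganglia, against 9.79, 10.09, 10.09 and 9.85 in control ganglia. The groups overlapped slightly and the difference was 0.21 (SE 0.09, limma adjusted p = 0.246). Trim32, the gene of a human limb-girdle muscular dystrophy, read 9.34 ± 0.13 in daDREAM and 9.24 ± 0.21 in control ganglia (adjusted p = 0.661). Trim2 had 6 probe sets, with differences from -0.03 to 0.38, none of which passed. Trim71, the mouse counterpart of worm lin-41, differed by -0.02.

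The TIF1 class of chromatin regulators showed no difference that passed (0 of 4 by limma, 0 at an unadjusted p under 0.05). Trim28, the corepressor recruited by KRAB zinc finger proteins, read 10.32 in daDREAM and 10.28 in control ganglia, with a 95% interval of the difference from -0.14 to 0.22, and its second probe set differed by 0.30 (adjusted p = 0.301 over probe sets). Trim24, a coregulator of nuclear receptors, differed by -0.08 (adjusted p = 0.667) and Trim33, which acts in TGF-beta signalling, by -0.03. Trim66 varied most of all members within groups. It read 6.60, 6.91, 7.12 and 5.90 in daDREAM ganglia, against 6.74, 6.71, 6.83 and 5.45 in control ganglia. The lowest array of each group was its replicate 4, on both of which Xist was high, while control replicate 3, with Xist at 10.20, read 6.83. Its difference of 0.20 (SE 0.31, limma adjusted p = 0.769) turned to -0.13 without control replicate 4.

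The striated muscle class gave 0 of 3 members that passed limma (1 at an unadjusted p under 0.05). Trim63 (MuRF1), a ligase that breaks down muscle proteins, read 5.75, 5.79, 5.45 and 5.46 in daDREAM ganglia, against 5.44, 5.42, 5.45 and 4.99 in control ganglia, all near background. Trim54 (MuRF3) read 6.65 ± 0.10 in daDREAM and 6.48 ± 0.12 in control ganglia (adjusted p = 0.324), and Trim72 (MG53), a membrane repair protein, differed by -0.04. Skeletal muscle markers had a summed signal of 9.83 to 9.91 in daDREAM and 9.94 to 11.63 in control ganglia, with 0 of 10 passing limma and 7 at an unadjusted p under 0.05. The 2 control arrays with the most Acta1, replicates 1 and 3, read 5.44 and 5.45 for Trim63, within the range of the other arrays. For Trim54 they read 6.37, the lowest of all 8 arrays, and 6.60.

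Of the remaining 27 members, Trim37 was the 1 that passed. The next smallest p was that of Trim29, a gene of keratinocytes and lung macrophages, which read 6.01, 6.29, 6.00 and 6.14 in daDREAM ganglia, against 6.48, 6.34, 6.39 and 6.68 in control ganglia. The groups did not overlap, and the difference of -0.36 (SE 0.10, limma adjusted p = 0.0867) did not pass. The other 25 differed by -0.30 to 0.23.

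TRIM relatives whose symbol has no Trim number were compared in the same way. Of 8 measured, 1 fell, where 1.02% of all genes passed as lower. It was Cmya5, a muscle protein with TRIM-like domains, at 6.60 ± 0.12 in daDREAM and 7.13 ± 0.17 in control ganglia (difference -0.53, limma adjusted p = 0.0134). Pml, the organiser of nuclear bodies and an interferon-inducible member of the family, differed by -0.02 (adjusted p = 0.928). Mid1 and Mid2, microtubule-bound relatives, differed by 0.24 and -0.01 without passing. Fsd1 was higher by 0.30 without overlap of arrays, but did not pass (limma adjusted p = 0.1105).

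Over the family as a whole, 31 members had 53 further probe sets. Of these 6 passed over all probe sets, 4 with the sign of the probe set that represents the gene and 2 with the opposite sign, those of Trim34a and Trim12a. Of all 53, 31 had the same sign and 22 the opposite one. Agreement between probe sets was thus uneven, with Trim37 at one end and the cluster genes at the other.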

How the data were processed

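Ganglion RNA of 4 daDREAM and 4 control samples was measured on Affymetrix arrays. Each deposited value is the log2 expression of a probe set, and the authors used RMA and affy, per the submitters' processing notes. No version, probe set definition or genome build is given in the sources used here. RMA subtracts background, quantile-normalizes probes over arrays and summarises each probe set, which removes shifts shared by most genes. Values ran from 3.39 to 14.84 without control probe sets, with array medians of 7.09 to 7.13. Precision is limited by the number of arrays.

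The table holds 45101 probe sets. Controls (64) were left out. A single gene symbol was annotated for 34945, several for 932, and 9160 had no symbol. The brightest single-symbol probe set stood for a gene. Group was the only term in limma 3.58.1 (R 4.3.3, lmFit and eBayes, two-sided), adjusted by Benjamini-Hochberg over 18193 genes or 45037 probe sets. Fold changes are powers of 2 of the log2 differences. On simulated data for this comparison over 18193 genes, limma recovered 70% of genes shifted by 0.5 and 96% of genes shifted by 1. Of its calls, 5.14% were false. All 58 members matched RefSeq by gene identifier (GRCm38.p6), which gave gene order. Promoter windows were matched by symbol and aligned with Biopython 1.88, ignoring end gaps. Figures were drawn with matplotlib 3.10.9.

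The members and lists were chosen with earlier results of these data known. Named in full were members that passed or differed by at least 0.5, the cluster genes, and the 2 members of smallest p per class. Of the interferon list and the TRIM relatives, genes that passed were named, and otherwise the 2 of smallest p. Around the cluster every gene that passed was named. Marker lists were described in part. Any further gene was named with its value known. The alternatives were the replicate block, normalization, dim probe sets, the choice of probe set, the variance prior, an unequal-variance test, the threshold and leaving out arrays.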

Additional observations from a re-analysis of the deposited data

Results flagged for a closer look

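In 12 of 142 sets of 4 arrays examined (8.45%), 1 array stood far from the other 3 of its group by Dixon's test, which chance alone flags in about 1 in 20 sets. Control replicate 4 accounts for 4 of the 12, with Trim10 at 7.61 and Trim17 at 6.40, both above the rest of their group, and Trim63 at 4.99 and Trim66 at 5.45, both below it. On daDREAM replicate 4, Trim30a read 7.59, above the others. daDREAM replicate 1 stood apart for Trim35 (11.20) and Trim67 (8.88), and daDREAM replicate 3 for Trim36 (11.63) and Trim65 (6.94). On control replicate 1, Trim30d read 5.42. On control replicate 2, Trim12a read 5.40, and on control replicate 3, Trim56 read 7.58. Of these genes, Trim30a was the only 1 that passed; it also passed without daDREAM replicate 4 (difference 0.71, limma adjusted p = 0.0234).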

How the results depend on the processing

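With the replicate number as a block, 672 genes passed in place of 364, with 5 TRIM genes as before, 15 interferon genes and 3 neighbours. TRIM counts in this paragraph include Trim34a and Trim12c wherever they passed, and are a description. The block added Ddx58, Eif2ak2, Ifih1, Ifit2, Irf7 and Oas1a to the interferon genes, all lower. Whether the numbers pair the samples is not settled, and they were taken as unpaired: same-numbered arrays correlated in their deviations at 0.209, 0.006, 0.331 and 0.36, 1 of the 4 under 0.1, and daDREAM replicate 1 went best with control replicate 2 (0.312). With the unequal-variance test 49 genes passed, with 2 TRIM genes (Trim34a and Trim37), 1 interferon gene and 0 neighbours. At an adjusted p under 0.01 these counts were 181, 3 TRIM genes, 7 and 1. Without the 3 arrays with the most Gh they were 98, 3, 3 and 0. Without the 3 with the most Xist they were 213, 4, 7 and 1. Without the 2 with the most Acta1 they were 171, 3, 5 and 0, and without the 2 with the most 18S 227, 4, 7 and 1. Beside Trim34a and Trim12c, Trim37 was the TRIM gene that passed without the Gh or the Acta1 arrays. On all arrays, 9 of the 40 neighbours of the chromosome 7 cluster had an unadjusted limma p under 0.05, the 2 that passed included. Leaving out 1 array gave 229 (without daDREAM replicate 2) to 349 genes, 4 to 5 TRIM genes, 7 to 10 interferon genes (Myd88 as higher without control replicate 2) and 1 to 2 neighbours. At the second brightest probe set 3 interferon genes and 1 neighbour passed. Of the 31 TRIM genes with such a probe set 5 passed there, Trim12a, Trim25, Trim30d, Trim34a (as lower) and Trim37. Trim12c, Trim21 and Trim30a did not. The sign turned there for Trim30a (-0.22), Trim34a (-0.355), Trim6 (0.34), Trim12a (0.99) and Trim36 (0.05). With the mean of probe sets 6 TRIM genes passed, Trim12a, Trim12c, Trim21, Trim30d, Trim34a and Trim37, while Trim30a did not (0.305, limma adjusted p = 0.156). With this mean the sign turned for Trim6 (0.12) and Trim12a (0.47), and after renewed quantile normalization for Trim12a (0.007). Trim24 read 0.01 without the Acta1 arrays. Without the 18S arrays Trim66 read -0.14 and Trim32 -0.06, and leaving out 1 array moved Trim66 between -0.13 and 0.44. The causes were not tested. Near background, changes may be missed.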
